A study of Homo sapiens with 30 samples.

Results

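The hypoxia response genes described here are HIF1A, EGLN1, EGLN3, NDRG1, VEGFA, BNIP3, BNIP3L, ANKRD37, ADM and KDM3A. They were taken by gene name from the deposited count and FPKM tables. Each name matched 1 row, which gives 10 genes of the 58735 in the table. All 10 also passed the filter on low counts. The rule itself uses no measured value, though earlier results of these data were known when the genes were chosen.

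HIF1A encodes the oxygen-sensitive subunit of hypoxia-inducible factor (HIF), a transcription factor that pairs with ARNT and binds short DNA elements beside its target genes. In oxygenated cells the prolyl hydroxylases encoded by EGLN1 and EGLN3 mark the subunit, and the VHL ubiquitin ligase then sends it for destruction, so that HIF1A is controlled largely at the protein level. mTOR, a kinase that drives cell growth, is known to raise the synthesis of this subunit in many cells, and in prostate cancer cells NDRG1 and VEGFA are also known as genes that respond to androgen.

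The samples were LNCaP cells, an androgen-responsive human prostate cancer line. mTOR was knocked down by shRNA in all of them, and an inducible system then supplied 1 of 5 constructs. These were wild-type mTOR (WT), mTOR tagged with a nuclear export signal (NES), mTOR tagged with a nuclear localization signal (NLS), the NLS form with the kinase-dead change D2357E (NLSKD), or the empty vector (EV). Each line was grown for 48 h in RPMI medium with 2% charcoal-stripped serum, which removes androgen, and then received 10 nM R1881, a synthetic androgen, or its vehicle, 0.1% EtOH, for 24 h. That makes 10 groups of 3 libraries each. EV served as the control for the rescue constructs, and since EV cells carry the shRNA too, cells with undisturbed mTOR were not analysed here. For the oxygen level of the cultures, and for whether a line was 1 clone, no statement is given in the sources used here. Nothing in the labels says that the 3 libraries of a group came from separate cultures, so p-values measure only the spread between these libraries, which may be technical.

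The libraries held 21435364 to 61762468 counted reads. Mitochondrial transcripts took 3.90% to 11.7% of them, and more than 9% in 5 libraries. Of the markers of luminal prostate cells, KLK3 was present at 48.0 to 1243 FPKM. KRT5, TP63, DCN, LUM, PTPRC, CD3E, PECAM1 and CDH5, which mark basal, stromal, blood and endothelial cells, stayed under 0.1 FPKM in every library. Of the other markers of those cells, KRT14 reached 1.25 FPKM, COL1A1 2.23, VWF 2.50 and CD68 0.160 FPKM. Some of these moved with the comparisons below. KRT14 rose with R1881 in all 5 lines, to averages of 0.500 to 2.19 CPM under R1881, against 0 to 0.240 CPM under vehicle. VWF fell with R1881 over the 5 lines (log2 fold change -1.27 ± 0.09 SE) and was higher than in EV cells in all 4 rescue lines under R1881 (0.73 to 1.71) and in WT and NES cells under vehicle (1.03 and 0.90). COL1A1 fell over the 5 lines (-0.50 ± 0.11). The part of these markers in the results was not tested. MTOR levels followed the labels of the rescue constructs. Under R1881 MTOR averaged 1603 CPM in WT cells, 4296 in NES, 1037 in NLS and 1082 in NLSKD cells, against 66.1 CPM in EV cells. Under vehicle it averaged 1840, 5252, 930 and 1016 CPM in the same rescue lines, against 25.7 CPM in EV cells. In EV cells MTOR was itself higher under R1881 than under vehicle (log2 fold change 1.36 ± 0.33 SE, adjusted p = 0.00786), whose part in the results below was not tested.

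RefSeq promoter windows on GRCh38.p14 were examined for 7 of the 10 genes. The promoters of the remaining genes were not examined, so nothing is said here of their elements. The 4 windows shown here belong to genes whose level changed with R1881 over the 5 lines together. Each run is the 250 bases before the RefSeq transcription start, read 5′ to 3′ on the gene's own strand. Capitals mark the cores of the hypoxia response element that HIF binds. The first core is ACGTG and reads CACGT on the other strand. The second core is GCGTG and reads CACGC on the other strand. Where the first core overlaps its own reverse by 4 bases, both count, as 2 matches. The BNIP3 window is chr10:131981924-131982173 on the reverse strand, ANKRD37 chr4:185396591-185396840 on the forward strand, ADM chr11:10304823-10305072 on the forward strand, and EGLN3 chr14:33951075-33951324 on the reverse strand.
BNIP3: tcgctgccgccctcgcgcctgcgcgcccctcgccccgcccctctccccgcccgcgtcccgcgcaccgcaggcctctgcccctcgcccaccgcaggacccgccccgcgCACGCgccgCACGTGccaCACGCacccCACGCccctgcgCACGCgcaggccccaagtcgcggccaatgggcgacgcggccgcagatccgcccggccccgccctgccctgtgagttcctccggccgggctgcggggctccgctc
ANKRD37: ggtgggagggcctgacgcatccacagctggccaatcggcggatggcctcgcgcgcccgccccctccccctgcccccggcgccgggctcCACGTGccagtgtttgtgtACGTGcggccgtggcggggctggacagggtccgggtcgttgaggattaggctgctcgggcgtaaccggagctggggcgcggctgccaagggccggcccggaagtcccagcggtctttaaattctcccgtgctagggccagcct
ADM: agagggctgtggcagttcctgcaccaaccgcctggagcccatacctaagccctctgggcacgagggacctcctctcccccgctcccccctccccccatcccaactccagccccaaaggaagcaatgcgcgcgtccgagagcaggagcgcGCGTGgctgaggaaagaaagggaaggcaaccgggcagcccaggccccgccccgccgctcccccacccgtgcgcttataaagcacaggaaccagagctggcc
EGLN3: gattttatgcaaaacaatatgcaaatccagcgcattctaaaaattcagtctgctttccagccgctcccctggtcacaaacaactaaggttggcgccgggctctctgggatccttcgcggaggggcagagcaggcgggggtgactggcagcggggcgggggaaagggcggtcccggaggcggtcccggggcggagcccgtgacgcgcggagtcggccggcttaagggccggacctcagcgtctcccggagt

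The BNIP3 window held 6 core matches, from -143 to -100 counted with -1 as the last base before the start. ANKRD37 had 3 matches between -162 and -139, ADM had 1 at -101 to -97, and these letters did not occur in the EGLN3 window. EGLN1 had 1 match at -13 to -9, KDM3A had 1 at -26 to -22 before the first of its RefSeq starts, and HIF1A had 1 at -204 to -200 before its first start and none before its second. Of 35116 RefSeq windows of the same length, 15172 (43.2%) held at least 1 core, so holding a match is common.

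Positions are given on hg38. HIF1A (ENSG00000100644) spans positions 61695513 to 61748259 on the forward strand of chromosome 14, and EGLN3 (ENSG00000129521) spans 33924231 to 34462774 on the reverse strand of the same chromosome. EGLN1 (ENSG00000135766) is at 231363751 to 231425044 on chromosome 1, KDM3A (ENSG00000115548) at 86440647 to 86492716 on chromosome 2, and ANKRD37 (ENSG00000186352) at 185396021 to 185400628 on chromosome 4. VEGFA (ENSG00000112715) is at 43770184 to 43786487 on chromosome 6, BNIP3 (ENSG00000176171) at 131966455 to 131982013 on chromosome 10, and ADM (ENSG00000148926) at 10304680 to 10307397 on chromosome 11. NDRG1 (ENSG00000104419) at 133237171 to 133302022 and BNIP3L (ENSG00000104765) at 26382898 to 26505636 are both on chromosome 8. All values were summed over the exons of a gene, so isoforms were not separated.

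The 10 genes covered a wide range of levels per length. Over the 30 libraries the median was 62.6 FPKM for BNIP3, 53.3 for BNIP3L, 40.8 for HIF1A, 23.9 for NDRG1, 12.8 for EGLN1, 9.98 for VEGFA, 3.43 for KDM3A, 3.38 for ANKRD37, 2.09 for EGLN3 and 0.146 for ADM. The ranges of neighbours in this order overlapped, except that the lowest VEGFA value (5.44 FPKM) lay above the highest KDM3A value (5.28 FPKM), and the lowest EGLN3 value (1.04 FPKM) above the highest ADM value (0.533 FPKM). The genes also differed in how far they moved between groups. The highest group mean was 40.9-fold the lowest for NDRG1, 11.4-fold for ADM, 3.81-fold for EGLN3, 3.78-fold for ANKRD37, 3.17-fold for BNIP3, 2.19-fold for VEGFA and 1.87-fold for BNIP3L, and only 1.63-fold for EGLN1, 1.55-fold for KDM3A and 1.43-fold for HIF1A. As a share of the variance of log2 CPM over the 30 libraries, differences between the 10 groups made up 96.0% for NDRG1 and 93.0% for EGLN3, against 12.8% for HIF1A and 40.6% for the median gene tested.

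**Figure D1:**
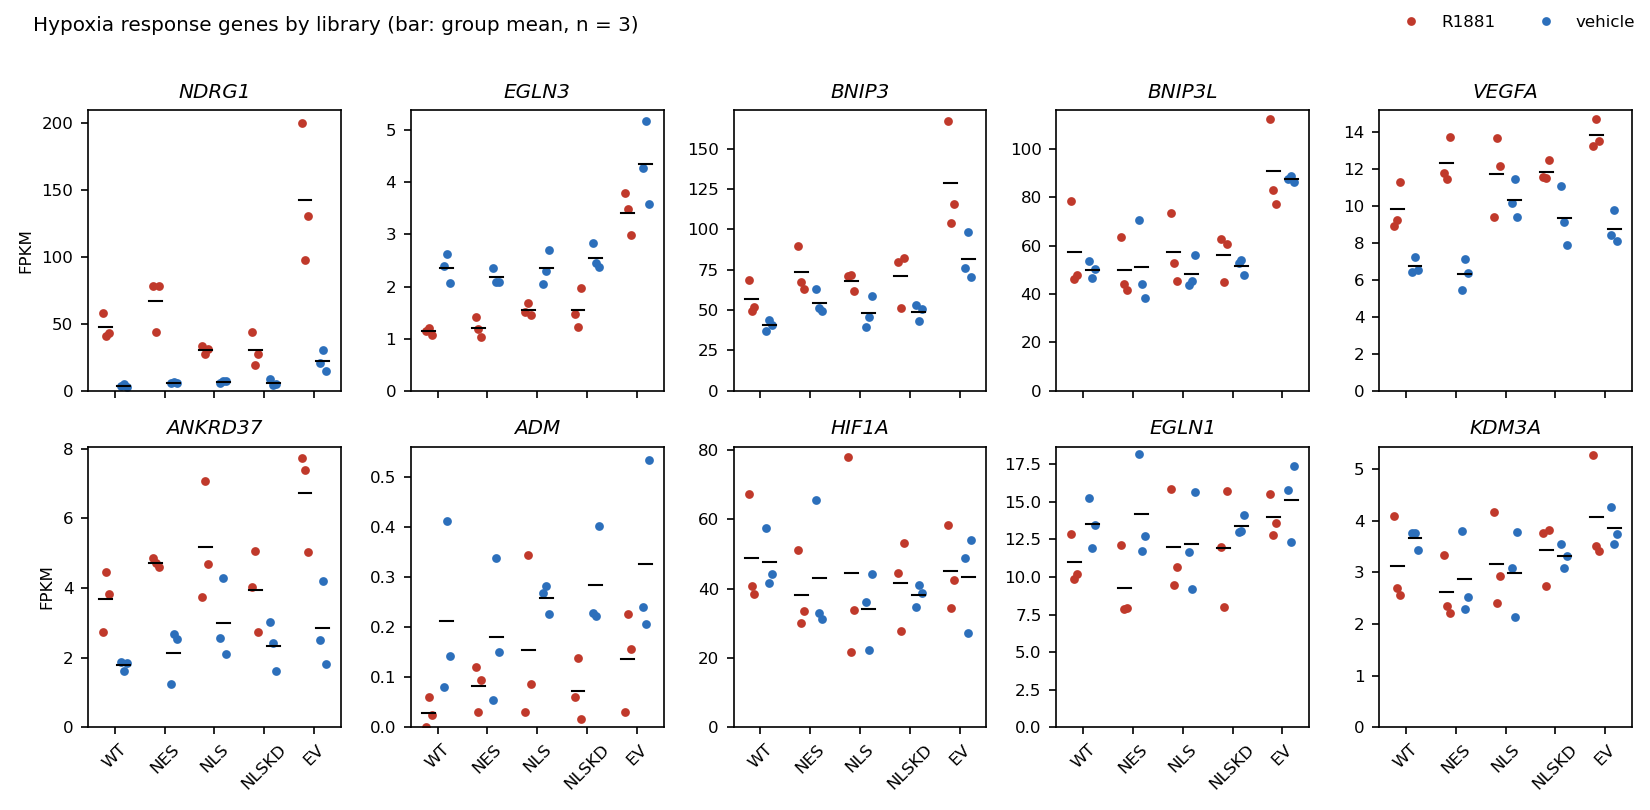
FPKM (linear y axis from 0) of the 10 genes in each of the 30 libraries, by line, with R1881 in red left of vehicle in blue and bars at the group means. NDRG1 stands higher under R1881 in every line, EGLN3, BNIP3 and BNIP3L stand higher in EV than in the rescue lines, and HIF1A spreads as widely within groups as between them.

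The first comparison asked which of these genes responded to R1881 in each line, with edgeR's quasi-likelihood test and a Benjamini-Hochberg adjusted p under 0.05 as the call. NDRG1 rose in all 5 lines. VEGFA rose in 3 of them and ANKRD37 in 2. BNIP3 rose in 1 line and EGLN3 fell in 3. In WT cells 2 of the 10 genes rose and 1 fell, while 6.48% of the 18296 genes tested were called (3.47% higher and 3.01% lower). In NES cells 3 rose and 1 fell, beside 8.25% of all genes (4.21% higher, 4.04% lower). NLS cells had 1 that rose, beside 4.44% of all genes (2.78% higher, 1.66% lower), and NLSKD cells had 1 that rose and 1 that fell, beside 4.08% (2.48% higher, 1.6% lower). In EV cells 4 rose and none fell, beside 9.11% of all genes (4.55% higher and 4.55% lower). At an unadjusted p under 0.05 in the same test, no further gene of the 10 was reached in EV cells. At that level WT cells added BNIP3, ANKRD37 and ADM, and NES cells BNIP3 and EGLN1. NLS cells added BNIP3, EGLN3 and ANKRD37, and NLSKD cells BNIP3, VEGFA, ANKRD37 and ADM. Of the 18296 genes tested, 2040 to 3516 reached that level in a line. The R1881 and vehicle libraries of a line did not overlap for 3 to 6 of the 10 genes, and for 13.7% to 24.6% of all genes tested. For the average of the 5 lines, which has more libraries behind it, 4 rose and 2 fell, beside 27.4% of all genes (13.5% higher, 13.9% lower). The median log2 fold change of that average was 0.11 over the 10 genes and 0.00 over all genes.

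Among the targets, NDRG1, which encodes a stress-response protein known to restrain metastasis, had the largest rise of the 10 genes. In bulk RNA a change in every cell and a change in some of the cells cannot be told apart. In WT cells NDRG1 stood at 58.1, 40.9 and 43.5 FPKM under R1881, against 3.25, 4.73 and 2.49 FPKM under vehicle. In NES cells the values were 78.5, 43.7 and 78.7 FPKM under R1881, against 5.54, 6.54 and 5.60 FPKM under vehicle. These are folds of 13.7 (log2 3.77 ± 0.35 SE, adjusted p = 2.62e-08) and 11.6 (3.53 ± 0.35, adjusted p = 5.56e-08). NLS cells held 33.3, 27.3 and 31.5 FPKM under R1881, against 5.49, 7.26 and 7.59 FPKM under vehicle, and NLSKD cells 44.0, 19.3 and 27.5 FPKM, against 8.67, 4.18 and 5.36 FPKM under vehicle. Here the folds were 4.55 (2.19 ± 0.33, adjusted p = 6.57e-05) and 5.06 (2.34 ± 0.33, adjusted p = 2.77e-05). EV cells had 199.8, 97.9 and 130.3 FPKM under R1881, against 20.6, 30.5 and 15.1 FPKM under vehicle, a 6.42-fold rise (2.68 ± 0.34, adjusted p = 2.43e-06). No R1881 library overlapped a vehicle library of its line, and EV cells were the highest under both treatments. Over the 5 lines NDRG1 rose 7.48-fold (2.90 ± 0.15, adjusted p = 2.62e-14).

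VEGFA, which encodes a secreted growth factor for blood vessels, rose most in NES cells. It stood there at 11.8, 11.5 and 13.7 FPKM under R1881, against 5.44, 7.13 and 6.40 FPKM under vehicle (log2 0.99 ± 0.16, adjusted p = 9.65e-05). It also rose in EV cells, with 13.2, 14.7 and 13.5 FPKM under R1881 against 8.46, 9.77 and 8.10 FPKM under vehicle (0.65 ± 0.16, adjusted p = 0.00818, but 0.0671 with no filter on low counts). In WT cells the rise was 0.56 ± 0.16 (adjusted p = 0.0288), and 5 of the 6 single libraries left out in turn (WT R1881 replicates 2 and 3 and all 3 WT vehicle replicates) ended that call at 0.44 to 0.62 (adjusted p = 0.0517 to 0.212). VEGFA did not pass in NLSKD cells (0.36 ± 0.16, adjusted p = 0.334), nor in NLS cells (0.20 ± 0.16, adjusted p = 0.789), where the R1881 libraries at 9.39, 13.7 and 12.2 FPKM overlapped the vehicle libraries at 10.2, 11.4 and 9.39 FPKM. Over the 5 lines it rose by 0.55 ± 0.07 (adjusted p = 7.29e-07).

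ANKRD37 encodes a small ankyrin repeat protein and is widely used as a hypoxia marker. EV cells had 7.73, 7.38 and 5.04 FPKM under R1881, against 2.51, 4.19 and 1.83 FPKM under vehicle, and NES cells 4.85, 4.71 and 4.60 FPKM, against 1.23, 2.67 and 2.52 FPKM under vehicle. The groups did not overlap in either line (log2 1.23 ± 0.34, adjusted p = 0.0187 in EV, and 1.17 ± 0.34, adjusted p = 0.0303 in NES). Both calls were thin. In EV cells leaving out R1881 replicate 1 or 2, or vehicle replicate 1 or 3, gave 1.001 to 1.16 (adjusted p = 0.0646 to 0.122). In NES cells leaving out any R1881 library, or vehicle replicate 1 or 3, gave 0.86 to 1.28 (adjusted p = 0.0546 to 0.228). In WT cells the value was 1.07 ± 0.34 (adjusted p = 0.0624), and in a fit blocked on replicate number it was 1.04 ± 0.28 (adjusted p = 0.0158). WT cells also passed with no filter on low counts, with DESeq2, with the compared groups only, without the libraries over 9% mitochondrial reads and without WT R1881 replicate 1 (1.05 to 1.26, adjusted p = 0.00797 to 0.0455). It did not pass in NLS or NLSKD cells (0.81 ± 0.34 and 0.77 ± 0.34). Over the 5 lines ANKRD37 rose by 1.01 ± 0.15 (adjusted p = 8.48e-06). ANKRD37 shares 909 exon bases, 35.2% of its exon length, with UFSP2 on the opposite strand, and reads there cannot be assigned without strand. UFSP2 itself moved by 0.08 ± 0.08 over the 5 lines (adjusted p = 0.506).

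BNIP3 and BNIP3L encode outer membrane receptors that mark mitochondria for removal by autophagy. BNIP3 stood at 167.3, 103.9 and 115.5 FPKM in EV cells under R1881, against 76.0, 98.2 and 70.5 FPKM under vehicle. The groups did not overlap, but the call (log2 0.65 ± 0.20, adjusted p = 0.0430) ended without EV R1881 replicate 1 or 3, or EV vehicle replicate 1 or 3 (0.42 to 0.72, adjusted p = 0.0566 to 0.307). In the 4 rescue lines the values were alike in size and short of the threshold, at 0.49 ± 0.20 in WT cells, 0.46 ± 0.20 in NES cells, 0.52 ± 0.20 in NLS cells and 0.56 ± 0.20 in NLSKD cells, which passed without NLSKD R1881 replicate 2 (0.75, adjusted p = 0.0451). Together the 5 lines gave a rise of 0.54 ± 0.09 (adjusted p = 4.51e-05). Its 39 annotated pseudogenes held 1041 counts in all, beside 284815 for BNIP3. BNIP3L gave 0.12 ± 0.10 over the 5 lines (adjusted p = 0.405) and was not called in any line. The difference between the paralogues was not tested.

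EGLN3, the prolyl hydroxylase gene that is itself a HIF target, fell in the lines where it was called. WT cells had 1.14, 1.20 and 1.08 FPKM under R1881, against 2.40, 2.62 and 2.08 FPKM under vehicle, 2.05-fold lower (log2 -1.03 ± 0.18, adjusted p = 0.000273). NES cells had 1.41, 1.19 and 1.04 FPKM, against 2.36, 2.09 and 2.09 FPKM under vehicle (-0.82 ± 0.18, adjusted p = 0.00295, and 0.0512 when only those 2 groups were fitted). NLSKD cells had 1.48, 1.22 and 1.98 FPKM, against 2.83, 2.45 and 2.37 FPKM under vehicle (-0.69 ± 0.18, adjusted p = 0.0212). The groups did not overlap in these 3 lines or in NLS cells, where the value was -0.59 ± 0.18 (adjusted p = 0.0567, and 0.0188 with DESeq2). The NLSKD call ended without NLSKD R1881 replicate 1 or 2 or vehicle replicate 1 (-0.69 to -0.54, adjusted p = 0.0879 to 0.173). In EV cells the groups overlapped, at 3.79, 3.48 and 2.98 FPKM under R1881 against 4.28, 5.18 and 3.59 FPKM under vehicle (-0.36 ± 0.18, adjusted p = 0.267). Over the 5 lines EGLN3 fell by 0.70 on the log2 scale (SE 0.08, adjusted p = 9.58e-08).

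ADM, which encodes the vasodilator peptide adrenomedullin, was near the detection limit. Its reads summed to 6 over the 3 WT libraries under R1881, against 45 under vehicle, and to 13 in NLSKD, against 58 under vehicle. In NES, NLS and EV cells the sums were 28, 29 and 26 under R1881, against 35, 50 and 67 under vehicle. These sums were not scaled for depth, and NES R1881 replicate 1, the deepest library, held 20 of the 28 reads. Scaled for depth, ADM averaged 0.227, 0.425 and 0.374 CPM in NES, NLS and EV cells under R1881. Under vehicle it averaged 0.494, 0.704 and 0.898 CPM in the same lines. ADM did not pass in any single line, though WT cells passed with no filter on low counts (log2 -2.81, adjusted p = 0.0445), and it fell in the average of the 5 lines (log2 -1.57 ± 0.40, adjusted p = 0.00394). The other 3 genes were not called. EGLN1, the main oxygen-sensing hydroxylase, gave -0.23 ± 0.11 over the 5 lines (adjusted p = 0.111), and passed without NES R1881 replicate 1, NLS R1881 replicate 1 or NLSKD R1881 replicate 3 (-0.29 to -0.28, adjusted p = 0.0386 to 0.0456). In NES cells it gave -0.59 ± 0.24 (adjusted p = 0.156), and with the replicate block the same value passed (adjusted p = 0.0273). KDM3A, a histone H3 lysine demethylase induced by HIF, gave -0.02 ± 0.11, and HIF1A itself 0.09 ± 0.17 (adjusted p = 0.739).

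**Figure D2:**
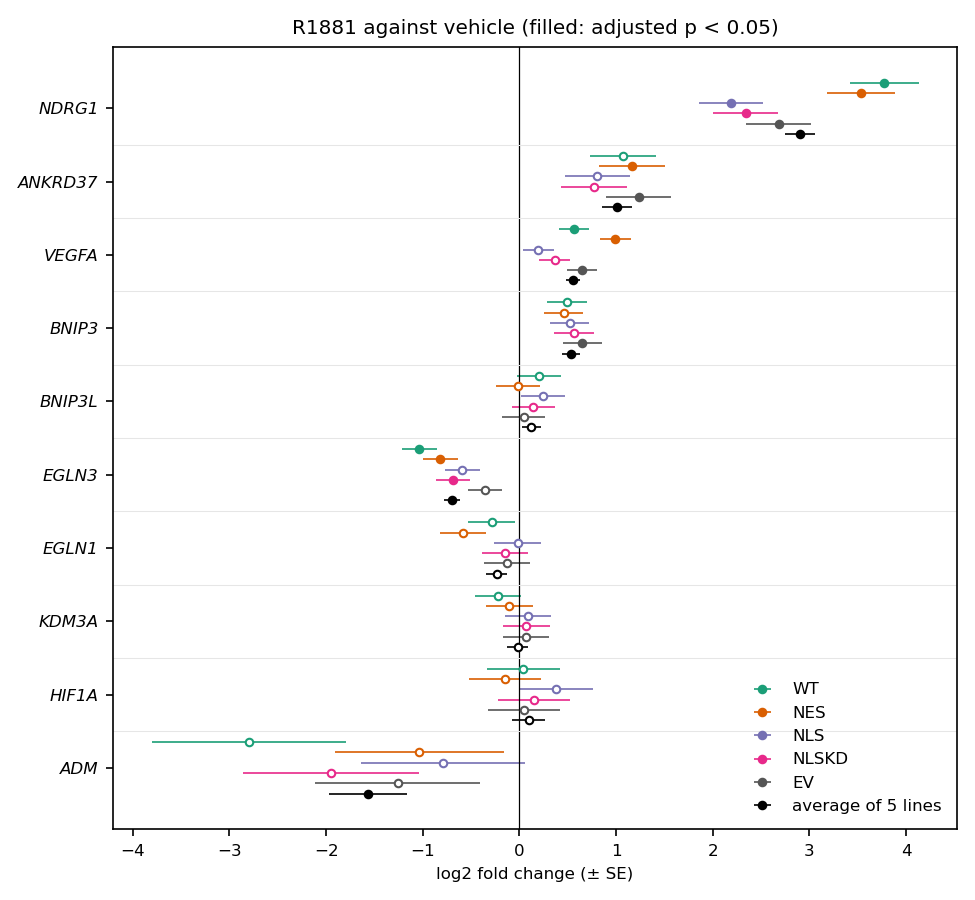
Log2 fold change of R1881 against vehicle (x axis, bars are SE) for the 10 genes in WT, NES, NLS, NLSKD and EV cells and the average of the 5 lines, filled where the adjusted p was under 0.05. NDRG1 is filled in every line, EGLN3 and ADM lie left of 0, and HIF1A, KDM3A and BNIP3L lie about 0.

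HIF1A deserves its own account because its libraries spread more within groups than its group means differed. In NLS cells it stood at 78.1, 21.7 and 33.9 FPKM under R1881, against 36.1, 22.1 and 44.1 FPKM under vehicle. In EV cells it stood at 58.5, 34.4 and 42.6 FPKM under R1881, against 48.8, 27.2 and 54.0 FPKM under vehicle. The groups overlapped in all 13 comparisons of 2 groups. Within a group the highest library was 1.80-fold the lowest at the median and 3.45-fold at most, while the group means differed by no more than 1.45-fold in CPM. The median within groups was larger for NDRG1 (1.85-fold), ANKRD37 (1.87-fold) and ADM (5.68-fold). Replicate 1 was the highest library in 6 of the 10 groups for HIF1A, in 6 for EGLN1 and in 8 for KDM3A. Over the 30 libraries HIF1A varied with KDM3A (r = 0.76) and EGLN1 (r = 0.73), and inversely with the mitochondrial share of reads (r = -0.48). These correlations are descriptions over libraries of 10 groups, and the part of that share was not tested. With a standard error of 0.38 on the log2 scale for 2 groups of this gene, only differences well beyond 2 SE could have been called, and HIF1A protein was not measured.

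The second question was how cells with each rescue construct differed from EV cells. The 4 comparisons under a treatment share the same 3 EV libraries, so they are not independent of each other. All calls were in 1 direction: every member called was lower in the rescue line. Under R1881, 3 of 10 genes were lower in WT cells, 4 in NES, 3 in NLS and 3 in NLSKD cells. Among all genes tested 4.83% were lower in WT cells (8.49% called in either direction), 3.69% in NES (6.96%), 3.44% in NLS (6.23%) and 2.95% in NLSKD (5.75%). Under vehicle, 4 were lower in WT cells, 3 in NES, 4 in NLS and 3 in NLSKD cells, beside 4.41% of all genes in WT cells (6.71% in either direction), 3.07% in NES (4.94%), 2.98% in NLS (4.57%) and 2.54% in NLSKD (4.01%). The median log2 fold change of the 10 genes under R1881 was -0.73 in WT cells, -0.62 in NES, -0.36 in NLS and -0.71 in NLSKD cells, where that of all genes lay between 0.02 and 0.04. Under vehicle it was -0.65, -0.53, -0.36 and -0.25 in the same lines, where that of all genes lay between -0.02 and 0.01. Rescue and EV libraries did not overlap for 4 to 7 of the 10 genes in a comparison, and for 15.6% to 27.7% of all genes tested.

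EGLN3 was lower in all 8 comparisons. Under R1881 WT cells held 1.08 to 1.20 FPKM, NES cells 1.04 to 1.41, NLS cells 1.46 to 1.68 and NLSKD cells 1.22 to 1.98 FPKM, against 2.98 to 3.79 FPKM in EV cells. The differences were -1.55 ± 0.18 in WT cells (adjusted p = 1.2e-06), -1.46 ± 0.18 in NES (4.3e-06), -1.13 ± 0.18 in NLS (0.000136) and -1.11 ± 0.18 in NLSKD cells (0.000201) on the log2 scale. Under vehicle, where EV cells held 3.59 to 5.18 FPKM, they were -0.87 ± 0.18 in WT cells (adjusted p = 0.00177), -0.996 ± 0.18 in NES (0.000584), -0.89 ± 0.18 in NLS (0.00198) and -0.78 ± 0.18 in NLSKD cells (0.00846). No rescue library reached the lowest EV library of its treatment. The NLSKD call under vehicle ended without EV vehicle replicate 2 or NLSKD vehicle replicate 2 or 3 (-0.74 to -0.64, adjusted p = 0.0517 to 0.0749). With only the compared groups fitted, the adjusted p under vehicle was 0.0629 in NES, 0.0824 in NLS and 0.0741 in NLSKD cells.

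NDRG1 was also lower in all 8 comparisons. Under R1881 the differences were -1.56 ± 0.32 in WT cells (adjusted p = 0.00198), -1.06 ± 0.32 in NES (0.0431), -2.21 ± 0.33 in NLS (6.97e-05) and -2.21 ± 0.33 in NLSKD cells (8.2e-05). NES cells, with 43.7 to 78.7 FPKM, came nearest to EV cells, with 97.9 to 199.8 FPKM, and only that call depended on single libraries. It ended without EV R1881 replicate 1 or 3 or any of the 3 NES R1881 libraries (-1.21 to -0.74, adjusted p = 0.0639 to 0.270), and when libraries over 9% mitochondrial reads were removed (-0.83, adjusted p = 0.185). Under vehicle the order was another: -2.65 ± 0.34 in WT cells (adjusted p = 4.81e-06), -1.91 ± 0.33 in NES (0.000395), -1.71 ± 0.33 in NLS (0.00139) and -1.87 ± 0.33 in NLSKD cells (0.00061). WT vehicle cells, at 2.49 to 4.73 FPKM, were the lowest of the 10 groups.

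BNIP3 was lower in all 4 rescue lines under R1881 and in 3 under vehicle. Under R1881 it stood at 68.4, 49.6 and 52.1 FPKM in WT cells, against 167.3, 103.9 and 115.5 FPKM in EV cells, a difference of -1.16 ± 0.21 (adjusted p = 0.000381). NES cells had 89.7, 67.5 and 63.3 FPKM (-0.78 ± 0.20, adjusted p = 0.0182), NLS cells 71.0, 71.9 and 61.9 FPKM (-0.91 ± 0.20, 0.00586) and NLSKD cells 80.0, 51.4 and 82.2 FPKM (-0.83 ± 0.20, 0.0130). No rescue library reached an EV library. The call in WT cells held without any 1 library. EV R1881 replicate 1, the highest, carried the other 3, since without it NES gave -0.55 (adjusted p = 0.167), NLS -0.68 (0.0719) and NLSKD -0.60 (0.128). The NES call also ended without NES R1881 replicate 2 (-0.71, adjusted p = 0.0935) or 3 (-0.69, 0.115), and the NLSKD call without NLSKD R1881 replicate 2 (-0.65, 0.0969).

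Under vehicle BNIP3 stood at 36.8, 44.0 and 41.0 FPKM in WT cells, against 76.0, 98.2 and 70.5 FPKM in EV cells (-0.998 ± 0.20, adjusted p = 0.00208). It was also lower in NLS (-0.77 ± 0.20, adjusted p = 0.0244) and NLSKD cells (-0.74 ± 0.20, 0.0353), and did not pass in NES cells (-0.58 ± 0.20, 0.119). The NLS call ended without EV vehicle replicate 1 or 2 or NLS vehicle replicate 1 or 2 (-0.81 to -0.62, adjusted p = 0.0540 to 0.194). The NLSKD call ended without EV vehicle replicate 1 or 2 or any NLSKD vehicle library (-0.79 to -0.59, 0.0699 to 0.191).

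BNIP3L was lower in 3 rescue lines under vehicle and in 1 under R1881. Under vehicle it stood at 53.6, 46.6 and 50.3 FPKM in WT, 70.8, 44.3 and 38.6 in NES, 43.9, 45.5 and 56.1 in NLS and 53.1, 54.2 and 48.0 FPKM in NLSKD cells, against 87.6, 89.0 and 86.5 FPKM in EV cells. No rescue library reached an EV library. The differences were -0.80 ± 0.23 in WT cells (adjusted p = 0.0295), -0.78 ± 0.23 in NES (0.0443), -0.86 ± 0.23 in NLS (0.0240) and -0.77 ± 0.23 in NLSKD cells (0.0547), the last not called. NLSKD cells passed with no filter on low counts (-0.75, adjusted p = 0.0400), with DESeq2 (-0.76, 0.0339) and with the compared groups only (-0.75, 0.0322). Each of the 3 calls was close to the threshold. The WT call ended without any 1 of its 6 libraries (-0.86 to -0.76, adjusted p = 0.0623 to 0.108). The NES call ended without any EV vehicle library or NES vehicle replicate 2 or 3 (-0.78 to -0.60, 0.104 to 0.295), and the NLS call without any EV vehicle library or NLS vehicle replicate 1 or 2 (-0.86 to -0.77, 0.0542 to 0.148).

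Under R1881 BNIP3L was called in NES cells (-0.83 ± 0.23, adjusted p = 0.0232), and not in WT (-0.64 ± 0.23, 0.0858), NLS (-0.66 ± 0.23, 0.0894) or NLSKD cells (-0.67 ± 0.23, 0.0858). NES cells had 63.6, 44.3 and 41.8 FPKM, against 112.4, 83.1 and 77.3 FPKM in EV cells. The call ended without EV R1881 replicate 1 (-0.65, adjusted p = 0.148) or NES R1881 replicate 2 or 3 (-0.74, 0.118 and -0.73, 0.137). In a fit blocked on replicate number, under which same-numbered libraries are set against each other, WT (-0.65, adjusted p = 0.0106), NLS (-0.66, 0.0117) and NLSKD cells (-0.66, 0.0128) were called too. WT cells also passed without WT R1881 replicate 1 (-0.92, adjusted p = 0.0192), and NLS cells without NLS R1881 replicate 1 (-0.855, 0.0385). The count over the 4 comparisons under R1881 was then 20 of 40 in place of 13, and it was 8 without EV R1881 replicate 1. Under vehicle the count of 14 of 40 was 9 without EV vehicle replicate 1 and 8 without EV vehicle replicate 2. Calls among all genes were not counted in these other runs, so the changed counts have no background share beside them.

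**Figure D3:**
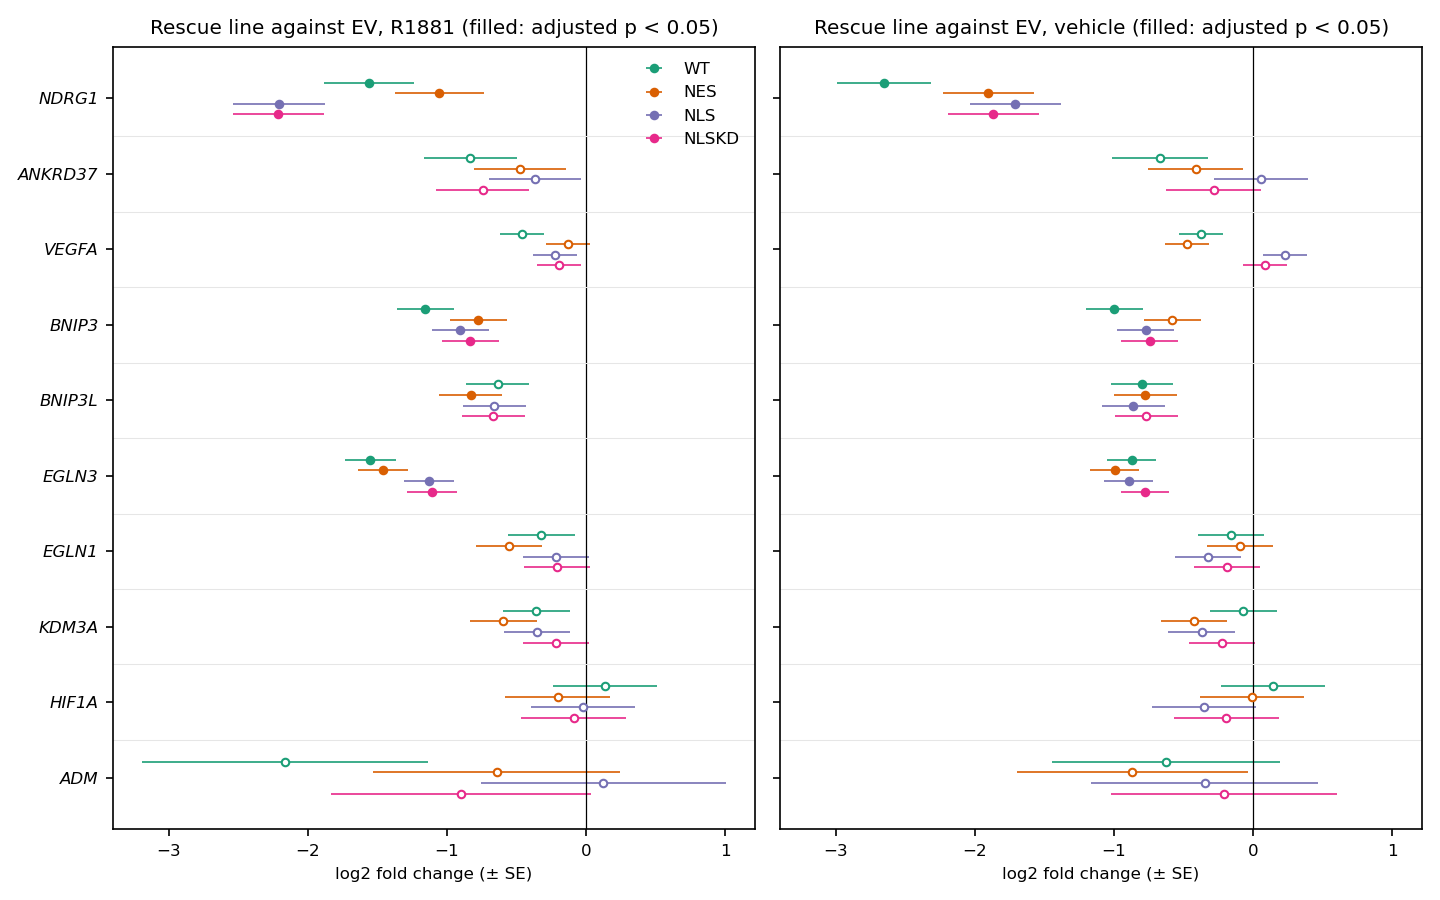
Log2 fold change of each rescue line against EV cells (x axis, bars are SE) for the 10 genes, under R1881 on the left and vehicle on the right, filled where the adjusted p was under 0.05. All filled points are negative and belong to NDRG1, BNIP3, BNIP3L and EGLN3, and HIF1A lies within 1 SE of 0 in each comparison.

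The genes that rose with R1881 did not all differ between lines. VEGFA lay between -0.46 and -0.13 against EV cells under R1881 and between -0.47 and 0.23 under vehicle, with adjusted p of 0.0755 at the lowest in edgeR's test. In WT cells under R1881 VEGFA passed with DESeq2 (-0.49, adjusted p = 0.0179), with DESeq2's size factors in edgeR (-0.49, 0.0472) and without WT R1881 replicate 3 (-0.60, 0.0481), and in NES cells under vehicle with DESeq2 (-0.47, 0.0381). ANKRD37 lay between -0.83 and -0.36 under R1881 and between -0.67 and 0.06 under vehicle, and did not pass in the main fit. In WT cells under R1881 ANKRD37 passed with only those 2 groups fitted (-0.87, adjusted p = 0.0465) and with the replicate block (-0.83, 0.0408). HIF1A lay between -0.20 and 0.14 under R1881 and between -0.35 and 0.14 under vehicle. KDM3A and EGLN1 were nearest to a call in NES cells under R1881 (-0.59 ± 0.24, adjusted p = 0.160, and -0.55 ± 0.24, adjusted p = 0.199). ADM was not called in any of these comparisons, and single libraries held 0 to 36 of its reads.

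The third question was whether the place of mTOR in the cell or its kinase activity mattered for these genes, taken over both treatments. MTOR itself was lower in NLS than in NES cells (-2.27 ± 0.24, adjusted p = 1.04e-06), so the place and the amount of mTOR cannot be told apart there. Between NLS and NES cells 0 of 10 genes were called by edgeR's quasi-likelihood test, where 3.88% of all genes were. DESeq2 also called 0. An unadjusted p under 0.05 in edgeR's test was reached by 2448 of the 18296 genes tested, and by 2 of the 10. These were VEGFA (0.31 ± 0.11, adjusted p = 0.157), which averaged 11.7 FPKM in NLS and 12.3 in NES cells under R1881 and 10.3 in NLS and 6.32 in NES cells under vehicle, and NDRG1 (-0.48 ± 0.23, adjusted p = 0.350). Without NLS R1881 replicate 1, VEGFA passed (0.38, adjusted p = 0.0448). Between NLS and NLSKD cells 0 of 10 were called by edgeR's test, where 0.0328% of all genes, 6 in number, were. DESeq2 called 0, and 0 of the 10 had an unadjusted p under 0.05 in edgeR's test, which 606 of the 18296 genes tested reached. NDRG1 differed by 0.08 ± 0.22, BNIP3 by -0.05 ± 0.14 and EGLN3 by -0.07 ± 0.13. The 95% interval of the NDRG1 difference ran from -0.36 to 0.52. Differences within it are not excluded by these libraries, and larger ones could also have gone uncalled.

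The last question was whether the response to R1881 itself differed between a rescue line and EV cells. No member was called by edgeR's interaction test in the 4 comparisons, where 0.0437% of all genes were called in WT cells, 0% in NES, 0.0164% in NLS and 0.0164% in NLSKD cells, and DESeq2 also called 0 of the 40 values. Of the 18296 genes tested, 490 to 706 reached an unadjusted p under 0.05 in a comparison. Among the 40 member values 2 did, both in WT cells. They were NDRG1, whose log2 fold change differed by 1.09 ± 0.45 between WT and EV cells, and EGLN3, with -0.68 ± 0.25, and the adjusted p was 1 for both. A line where a gene was called and another where it was not are therefore not shown to differ in their response.

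The rest of the HIF system was followed through lists that do not overlap with the 10 genes. Of 16 regulators of HIF, 15 were tested. Over the 5 lines 3 rose and 5 fell with R1881, where 13.5% of all genes rose and 13.9% fell. Against EV cells 0 to 2 were lower and 0 to 1 higher in each of the 8 comparisons, where 2.54% to 4.83% of all genes were lower. EPAS1, which encodes HIF-2α, the paralogue of HIF1A, was lower than in EV cells in all 4 rescue lines under R1881. It averaged 1.72 ± 0.13 CPM in WT cells, 1.63 ± 0.03 in NES, 1.88 ± 0.67 in NLS and 1.89 ± 0.36 in NLSKD cells, against 5.41 ± 1.27 CPM in EV cells (SD, n = 3 each), and the log2 differences ran from -1.73 to -1.51. Under vehicle it was lower in WT (-0.87 ± 0.25), NES (-0.85 ± 0.25) and NLSKD cells (-1.16 ± 0.25). R1881 lowered EPAS1 in WT, NES and NLS cells (-1.21 ± 0.26, -1.31 ± 0.26 and -1.11 ± 0.26). ARNT2, a neural partner of HIF subunits, was lower in WT and NES cells under R1881 (-1.88 ± 0.25 and -1.36 ± 0.24) and under vehicle (-1.87 ± 0.24 and -1.39 ± 0.24). It was also lower in NLSKD cells under vehicle (-0.82 ± 0.24, adjusted p = 0.0482). SIAH1, a ubiquitin ligase that acts on the EGLN hydroxylases, was higher in NLSKD cells than in EV cells under R1881 (0.80 ± 0.23) and vehicle (0.97 ± 0.23).

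Of 48 other HIF target genes, 44 were tested. Over the 5 lines 17 rose and 5 fell with R1881, beside 13.5% of all genes that rose and 13.9% that fell (median log2 fold change 0.23, against 0.00 for all genes). HK2, the hexokinase that opens glycolysis, rose in every line, and averaged 99.7 ± 3.3 CPM in WT, 111 ± 11 in NES, 90.4 ± 8.5 in NLS, 85.8 ± 13.9 in NLSKD and 112 ± 16 in EV cells under R1881, against 60.5 ± 1.1, 52.0 ± 2.3, 54.4 ± 9.1, 52.6 ± 3.8 and 57.1 ± 10.1 CPM under vehicle in the same lines (SD, n = 3 each). SLC2A3, a glucose transporter gene, had 848 reads in WT, 2351 in NES, 819 in NLS, 537 in NLSKD and 1247 in EV cells under R1881, against 2, 0, 0, 1 and 0 reads under vehicle. These sums were not scaled for depth, which differed between groups. Scaled for depth, SLC2A3 averaged 10.9 CPM in WT, 19.8 in NES, 8.90 in NLS, 7.87 in NLSKD and 17.4 in EV cells under R1881. CCNG2, an atypical cyclin, and CA12, a carbonic anhydrase, were among those that fell (-1.14 ± 0.12 and -0.89 ± 0.10 over the 5 lines).

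The same targets were then compared with EV cells, where 2.54% to 4.83% of all genes were lower in the 8 comparisons, with 3.07% in NES cells under vehicle. In WT cells 8 of 44 were lower and 2 higher under R1881, and 8 were lower and 0 higher under vehicle. In NES cells 3 were lower and 1 higher under R1881, and 2 lower under vehicle; in NLS cells 4 were lower under each treatment; and in NLSKD cells 3 were lower and 1 higher under R1881, and 3 lower under vehicle. The median log2 fold change ran from -0.49 to -0.20 over the 8 comparisons, while that of all genes ran from -0.02 to 0.04. LDHA, the lactate dehydrogenase subunit, averaged 836 ± 149 CPM in WT cells, against 1972 ± 487 CPM in EV cells under R1881 (-1.24 ± 0.26, adjusted p = 0.00254), and was lower in WT and NLS cells under vehicle (-1.24 ± 0.26 and -0.95 ± 0.26). BHLHE40, a transcriptional repressor of the circadian system, was lower under R1881 in WT (-0.92 ± 0.22), NLS (-0.96 ± 0.22) and NLSKD cells (-1.07 ± 0.23), and under vehicle in WT (-1.07 ± 0.23), NES (-1.21 ± 0.23) and NLSKD cells (-0.95 ± 0.23). TMEM45A, a transmembrane protein gene, was lower in all 4 rescue lines under vehicle, from -3.45 ± 0.56 in WT to -2.06 ± 0.51 in NLS cells. IGFBP3, an IGF-binding protein, went the other way and was higher in WT (1.84 ± 0.31) and NES cells (1.29 ± 0.30) under R1881.

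Among 14 genes of VEGF and adrenomedullin ligands and receptors, 7 were tested. In each comparison 1 to 3 of them were lower and 0 higher than in EV cells, where 2.54% to 4.83% of all genes were lower. VEGFB, a paralogue of VEGFA, was lower under vehicle in WT (-2.84 ± 0.43), NLS (-1.56 ± 0.40) and NLSKD cells (-2.34 ± 0.42), and under R1881 in the same 3 lines (-2.05 ± 0.41, -1.38 ± 0.40 and -1.86 ± 0.41). CALCRL, the adrenomedullin receptor subunit, was lower in all 4 rescue lines under vehicle and averaged 0.26 to 0.77 CPM there, against 3.39 ± 0.68 CPM in EV cells. NRP1, a VEGF co-receptor, was lower under vehicle in WT, NLS and NLSKD cells (-1.13 ± 0.22, -1.25 ± 0.22 and -1.25 ± 0.22). Of 11 mitophagy receptors and adaptors beside BNIP3 and BNIP3L, 10 were tested. In each comparison 1 to 3 of them were lower and 0 higher than in EV cells, beside the same 2.54% to 4.83% of all genes lower. OPTN, an adaptor that links marked mitochondria to autophagosomes, was lower in all 8 comparisons with EV, from -1.25 ± 0.22 in NES cells under vehicle to -0.68 ± 0.21 in WT cells under R1881. Of 5 paralogues of the members, NDRG3 was lower in WT cells under both treatments (-0.45 ± 0.11 under R1881 and -0.46 ± 0.11 under vehicle) and in NLSKD cells under vehicle (-0.44 ± 0.11), and NDRG4 was higher in WT (1.78 ± 0.41) and NES cells (1.44 ± 0.41) under vehicle.

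**Figure D4:**
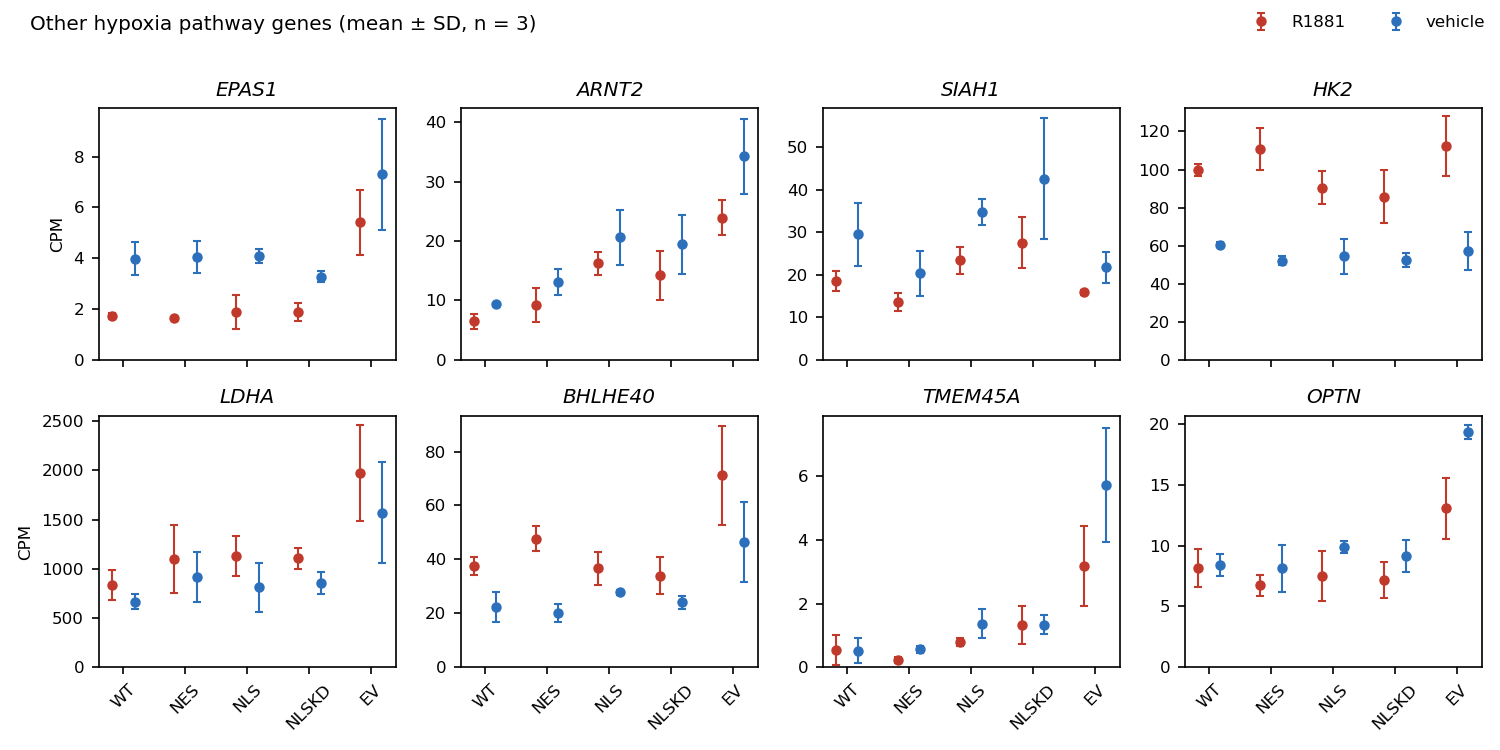
CPM (linear y axis from 0, mean and SD of 3 libraries) of 8 other genes of the HIF pathway by line, with R1881 in red left of vehicle in blue. EPAS1, ARNT2, LDHA, BHLHE40, TMEM45A and OPTN have their highest group mean in EV cells, and HK2 is higher under R1881 in every line.

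Across the 30 libraries NDRG1, VEGFA, ANKRD37 and BNIP3 varied together to differing degrees, with r of log2 CPM of 0.86 between VEGFA and ANKRD37, 0.83 between NDRG1 and BNIP3, 0.79 between NDRG1 and ANKRD37, 0.75 between NDRG1 and VEGFA, 0.58 between BNIP3 and ANKRD37 and 0.55 between BNIP3 and VEGFA. BNIP3L followed BNIP3 (r = 0.77) and KDM3A (r = 0.76), and EGLN1 followed KDM3A (r = 0.79). EGLN3 was apart from NDRG1 (r = -0.19). Of 13488 other protein-coding genes, the one most like NDRG1 was TSC22D1 (r = 0.96), and for BNIP3 it was LDHA (r = 0.92). For EGLN3 it was TRIM38 (0.93), for VEGFA GRK2 (0.90), for ANKRD37 UBALD2 (0.96), for BNIP3L PPP1R3B (0.88) and for ADM FES (0.86). HIF1A was most like WASHC4 (0.98), KDM3A most like CPSF2 (0.89) and EGLN1 most like TTC30A (0.92). These coefficients describe 30 libraries that share their groups and differ in depth, and carry no test.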

How the data were processed

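The submitters prepared paired-end libraries of 150 bases with the NEBNext Ultra II RNA kit, per the labels' protocols. Whole-number read counts per gene and FPKM values were deposited by the authors, for 58735 genes in 30 libraries. HISAT2 2.0.5, featureCounts 1.5.0-p3 and hg38 are named in the submitters' processing notes, with no role given. For strand setting and for reads that match several places, no statement is given in the sources used here, so reads shared by overlapping genes may be lost or misassigned. Gene coordinates in the deposited tables equal those of GENCODE release 29 for all 58735 genes. FPKM recomputed from counts and gene lengths was within 0.1% of the authors' FPKM for all genes of at least 100 counts once a denominator was estimated for each library. Library totals were 0.913 to 1.08 times that denominator.

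Counts were filtered with edgeR's filterByExpr (18296 genes kept, 40439 left out), scaled by TMM and tested with edgeR 4.0.16's quasi-likelihood test in R 4.3.3, in 1 fit over all 10 groups. P-values were adjusted by Benjamini-Hochberg over the 18296 genes of each of 20 comparisons, and a call is an adjusted p under 0.05. Log2 fold changes carry their standard errors. FPKM is used for levels between genes, and CPM with TMM factors for tests between groups. The procedure was tested on simulated data, where smaller changes were recovered less often than larger ones.

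The 10 genes and the lists were chosen with earlier results of these data known. Named were the 10 genes in every comparison, MTOR, up to 4 called protein-coding genes of each list by adjusted p, the gene most like each member, and cell type markers. UFSP2 and further comparisons of genes so named were added after their values were seen. Some genes so named are not reported here. Alternatives were DESeq2 1.42.0's size factors in edgeR, no filter, DESeq2, a replicate block, a fit of the compared groups only, removal of libraries over 9% mitochondrial reads, and removal of each library in turn.

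Replicates of a group differed by more than sampling noise. Groups share replicate numbers. The deviations of same-numbered libraries from their group means correlated by over 0.1 in all 3 pairs for 7 of 13 comparisons (R1881 against vehicle in EV, WT, NES and NLSKD cells, NLS against EV under both treatments, and NLSKD against EV under R1881), with r from -0.129 to 0.64 over 39 pairs. There the blocked value is given where it changed a call.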

Additional observations from a re-analysis of the deposited data

How the results depend on the processing

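No called value of the 10 genes reversed under an alternative. Of 47 called values among 200, 27 were called under each alternative run and 20 were lost under at least 1, and 17 others were called under at least 1. The 6 calls averaged over the 5 lines were never lost. Counts that moved by over 1.5 times were these. For the rescue lines against EV under R1881, 13 calls became 20 with the replicate block, and ranged from 8 to 15 when each library was left out in turn. Under vehicle, 14 calls became 9 with only the compared groups fitted, 8 without the libraries of high mitochondrial share, and 8 to 15 when each library was left out. For NLS against NES, 0 calls became 0 to 1. The cause was not tested. The block lost no call, and 23 of 30 libraries deviated most like libraries of their own number. The replicate block gave 17 calls in place of 14 for R1881 against vehicle, with EGLN3 in NLS cells among them (-0.60, adjusted p = 0.0327). It gave 7 in place of 6 over the 5 lines, adding EGLN1 (-0.24, adjusted p = 0.0205), and 17 in place of 14 for rescue against EV under vehicle, adding BNIP3 and VEGFA in NES (adjusted p = 0.0491 and 0.0405) and BNIP3L in NLSKD cells (0.00456). Under R1881 it added, besides BNIP3L, VEGFA and ANKRD37 in WT (0.0329 and 0.0408) and EGLN1 and KDM3A in NES cells (0.0352 and 0.0194). Values of the wider lists and calls among all genes were not kept under the alternatives. The changed member counts therefore have no background share beside them, and are not shown to be particular to the 10 genes. Another scaling moved the median log2 fold change of all genes by -0.04 to 0.01. With 3 libraries a group the SE between 2 groups was 0.38 for HIF1A, and ADM had 0 to 36 reads a library.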
